A study of Rattus norvegicus with 10 samples.

Results

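Genes of axon guidance and cell adhesion carried 93 of the 8957 regions of DNA methylation compared here, at 51 of 5565 gene names. They were chosen by gene symbol alone, from 17 families: semaphorins, plexins, ephrins and Eph receptors, netrins with netrin-G, Unc5 receptors, Slits, Robo receptors, neurexins, neuroligins, the Lrrtm and Lrfn proteins, cadherins, protocadherins, contactins with their associated proteins, nectins and the Cadm proteins. Of these, 15 families had a region and Lrrtm and Cadm had none. Another 5 regions with a matching symbol lay on the X chromosome and were left out, since the labels do not give the sex of the offspring. The file ties a region to a gene by the nearest start site, so a region named for a gene need not lie in it.

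The tissue was the arcuate nucleus of the hypothalamus of rat offspring, 5 whose fathers had been fed a high-fat (HF) diet and 5 whose fathers had been fed chow, and the comparison asks about the father's diet. The fathers were Wistar rats, put on their diet after arrival on postnatal day 21 and each was mated with a chow-fed female between postnatal days 90 and 100. Litters were limited to at most 8 pups. All offspring, of both groups, ate chow to postnatal day 35 and the HF diet from then on, and tissue was taken on day 70, so no animal on chow throughout was compared. Litter, sire and sex of each animal are not stated, and p-values therefore measure the spread between these samples, some of which may be littermates.

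Growing axons read cues through receptors on the growth cone. Semaphorins bind plexins, ephrins bind Eph receptors, netrins bind DCC and Unc5 receptors, and Slits bind Robo receptors. In the mature brain many of the same families, with neurexins, neuroligins, cadherins and nectins, hold synapses together and shape them. In the arcuate nucleus, outgrowing projections reach other hypothalamic nuclei after birth in rodents. Methylation of CpGs close to a start site is usually low in genes that can be transcribed, and CpG-rich promoters, which reduced representation bisulfite sequencing covers preferentially, are usually near 0.

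The promoters of 4 of these genes are printed to show the kind of sequence measured, each as the 250 bases before the RefSeq start, 5′ to 3′ on the gene's strand, with every CpG in capitals. Nlgn2 and Unc5b stand for a synaptic adhesion and a guidance receptor gene, and Efna2 and Cdh22 for a pair with low and intermediate methylation near the start. They are from RefSeq on GRCr8, at chr10:55056579-55056828 (minus strand) for Nlgn2, chr20:29307271-29307520 (minus) for Unc5b, chr7:10177720-10177969 (minus) for Efna2 and chr3:174389893-174390142 (minus) for Cdh22.
Nlgn2: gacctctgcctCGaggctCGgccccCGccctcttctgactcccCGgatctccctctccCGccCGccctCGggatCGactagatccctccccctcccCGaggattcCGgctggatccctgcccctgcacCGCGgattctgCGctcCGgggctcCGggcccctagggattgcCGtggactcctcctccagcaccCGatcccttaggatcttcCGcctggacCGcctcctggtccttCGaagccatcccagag
Unc5b: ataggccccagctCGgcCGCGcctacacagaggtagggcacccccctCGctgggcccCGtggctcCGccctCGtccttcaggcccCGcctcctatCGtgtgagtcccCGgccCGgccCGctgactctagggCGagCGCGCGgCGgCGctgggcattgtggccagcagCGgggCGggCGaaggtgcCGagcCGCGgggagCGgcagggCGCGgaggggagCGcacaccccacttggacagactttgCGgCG
Efna2: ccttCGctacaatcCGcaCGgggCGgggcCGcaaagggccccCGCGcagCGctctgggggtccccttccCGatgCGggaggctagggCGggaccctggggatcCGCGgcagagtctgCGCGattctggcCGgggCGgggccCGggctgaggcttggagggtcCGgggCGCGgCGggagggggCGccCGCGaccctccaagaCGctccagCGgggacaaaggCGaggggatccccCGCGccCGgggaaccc
Cdh22: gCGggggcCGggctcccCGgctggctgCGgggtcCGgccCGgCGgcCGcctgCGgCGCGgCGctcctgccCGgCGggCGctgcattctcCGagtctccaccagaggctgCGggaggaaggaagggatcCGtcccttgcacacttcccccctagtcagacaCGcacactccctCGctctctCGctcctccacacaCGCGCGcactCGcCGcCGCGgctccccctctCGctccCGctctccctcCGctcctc
Each window was searched for CG and for CCGG, the latter being the site of MspI, the enzyme commonly used for this kind of library. Both motifs read the same on both strands, and each CCGG contains a CG. Nlgn2 had 20 CpGs, Unc5b 30 and both Efna2 and Cdh22 31. The median over 33469 rat promoters was 5, and 16.7% of them had as many as Nlgn2, 5.35% as many as Unc5b and 4.68% as many as Efna2 or Cdh22. At least 1 CG was found in 92.2% of all promoters. CCGG occurred 4 times in Nlgn2, 2 times in Unc5b, 4 times in Efna2 and 5 times in Cdh22, and at least once in 46.2% of all promoters. The table held a promoter for 36 of the 51 genes, which is too few for a check of CpG number over the set. The build of the measured coordinates is not given in the sources used here, so the regions below are not placed on these sequences, and their coordinates are as the file gives them.

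Every value below is the average methylation of a region in percent. Groups are given as mean ± SD over 5 animals each, and a difference is the paternal HF mean minus the paternal chow mean in percentage points. Exact permutation p-values of single regions are two-sided and unadjusted. Where single animals are listed, paternal HF animals come in the order 22HFB, 22HFR, 24HFB, 26HFB and 28HFB and paternal chow animals in the order 2HFB, 4HFB, 6HFBB, 6HFB and 8HFB, the names of the table's columns. Read depth is unknown, and each level averages all cells of the dissected tissue. The measurement holds no RNA, so the labelled tissue could not be checked against marker genes. The authors had picked all 8957 regions for a difference between these same animals, so no test here is independent evidence.

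Animal 4HFB of the paternal chow group stood apart. It held 82 of the 127 missing averages of the whole table and was at exactly 0 in 20.3% of all regions. Of the 93 guidance and adhesion regions, all of which had a value in every animal, it was the highest of all 10 animals at 22 and the lowest at another 22, together 47.3% against 33.4% of all regions with complete values. It was the highest animal at 20 of the 37 regions that were lower in paternal HF offspring (54.1%; 44.8% of such regions in the whole table) and the lowest at 20 of the 56 that were higher (35.7%; 26.2%). Animal 22HFR of the paternal HF group came next, highest or lowest at 29.0% of the 93 regions and at 31.4% of all regions with complete values. Differences below that turn or move by over 1.5 times without 4HFB are given both ways, except on the X chromosome.

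**Figure D1:**
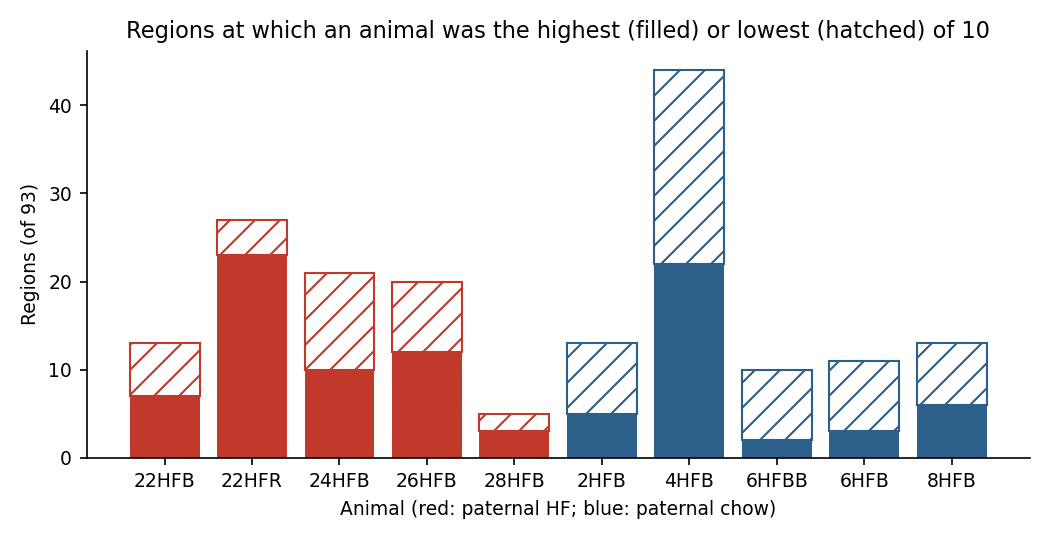
Bars give the number of the 93 regions, on the y axis, at which each of the 10 animals (x axis) had the highest or the lowest level. Animal 4HFB was highest at 22 and lowest at 22, and animal 22HFR of the paternal HF group was highest at 23.

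Most of the regions were nearly unmethylated. The median level was 3.005% against 2.27% for all 8957 regions, and 61 of the 93 (65.6%) lay at up to 5%, against 81.1% of all. Another 21 lay between 5% and 20%, 9 between 20% and 80%, and 2 above 80%, which were named for Epha8 and Sema3e. By the file's annotation 23 lay at promoters (24.7%; 38.3% of all regions), 26 in exons (27.96%; 20.2% of all), 19 in introns, 21 between genes and 4 at transcript ends. Within 1000 bases of a start site lay 55. The regions were 24 to 388 bases long, with a median of 67 bases and 10 to 43 CpGs as the file counts them.

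Paternal HF offspring had the higher mean at 56 of the 93 regions (60.2%), against 71.0% of all regions, and the lower mean at 37, or 39.8% against 29.0%. The median difference was 1.24 points and 1.41 points over all regions. Differences ran from −4.47 to 7.88 points, and 89 of the 93 were under 5 points in size. No region passed: limma with Benjamini-Hochberg adjustment over the whole table gave 0 of 93 with an adjusted p below 0.05 (0% of all regions), with 0.235 as the smallest. An unadjusted limma p below 0.05 was found for 16 regions (17.2%), against 20.9% of all. They comprised 12 higher (12.9%, with 16.4% of all) and 4 lower (4.30%, with 4.52% of all). The count fell to 10 without paternal HF animal 26HFB and to 10 without paternal chow animal 2HFB. Shares of all regions without these animals are not given, so this fall cannot be set against the whole table. The exact permutation test per region gave 21 below an unadjusted 0.05 (22.6%, with 24.9% of all) and 0 after adjustment, with 0.00794 as the smallest p that 5 against 5 animals can give. At no member did the groups fail to overlap, against 5.15% of all regions; without 4HFB they failed to overlap at 2 (2.15%; 7.79% of all). Leaving out each other animal gave 0 to 5, with 5 without 24HFB, and the shares of all regions for these settings are not given. The difference exceeded both groups' SD at 29 regions (31.2%; 34.2% of all). In the authors' deposited table, 0 of the 93 had a q below 0.05, against 0.848% of all regions. A q below 1 was given in the authors' deposited table for 1 member, the Ntng2 region at 7800304 (q = 0.568), against 2.09% of all. Apart from the share with a lower mean (39.8% against 29.0%), these shares lie near or below those of the whole table.

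Without 4HFB, 60 regions were higher and 33 lower, so 64.5% were higher, against 72.3% of all. The 4 that changed direction did so from lower to higher and belonged to Ephb2, Nectin1, Pcdh10 and Pcdh9. Averaged over the 93 regions, the level was 10.5% ± 0.836 in paternal HF animals (9.69% to 11.8%) and 9.74% ± 0.427 in paternal chow animals (9.20% to 10.2%). The groups overlapped on this mean, and the difference of 0.732 points was under the SD of the paternal HF group. Without 22HFR this difference was 0.412 points, and without 4HFB it was 0.849 points. The median over the regions was 3.66% ± 0.854 and 2.99% ± 0.431, a difference of 0.676 points. Both differences were smaller than those of the whole table. Averaged over all regions, the level was 7.23% ± 0.672 and 6.13% ± 0.295, a difference of 1.10 points. There the groups did not overlap (6.48% to 8.24% and 5.72% to 6.46%). The median over all regions differed by 1.03 points.

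**Figure D2:**
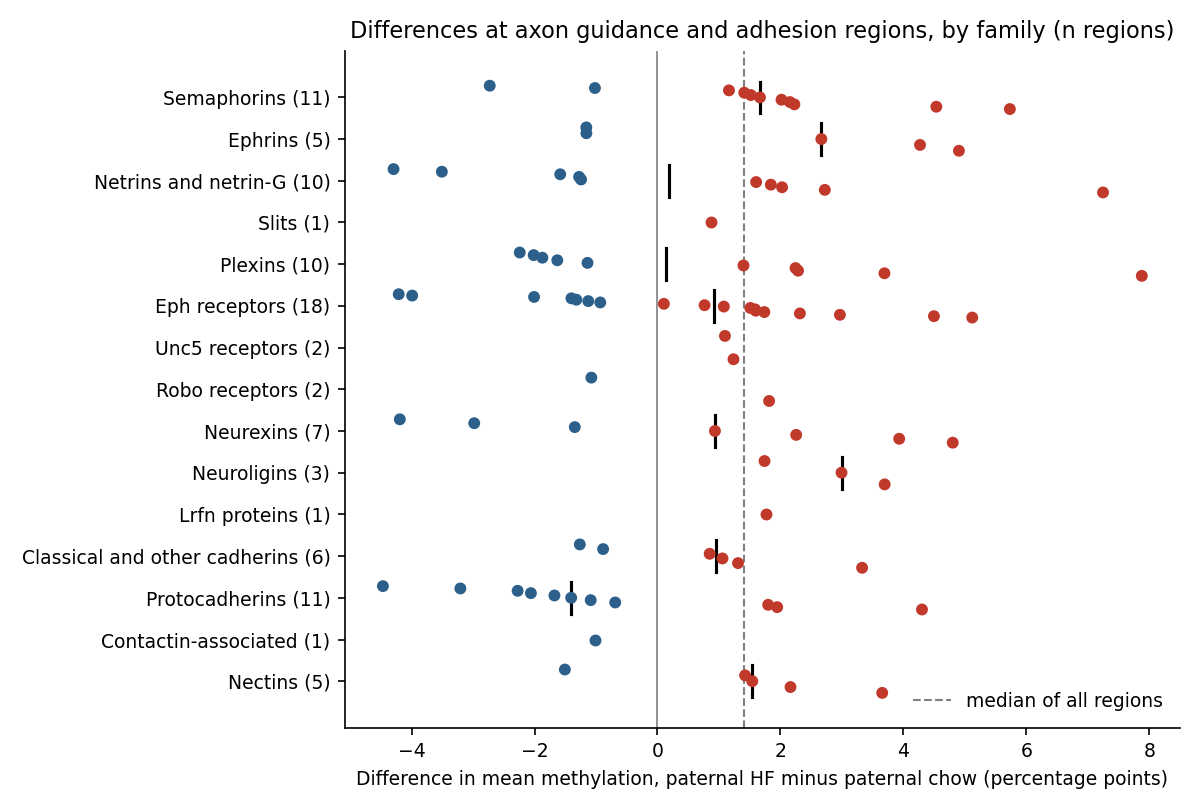
Each point is 1 of the 93 regions, placed by family (y axis) and by the difference in mean methylation, paternal HF minus paternal chow, in percentage points (x axis). Points lie on both sides of 0 in most families, with 9 of 11 semaphorin regions above 0 and 8 of 11 protocadherin regions below it (6 of 11 without 4HFB). Black ticks are family medians (families of 3 or more) and the dashed line is the median of all 8957 regions, 1.41 points.

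Among the guidance ligands, 18 of 27 regions were higher in paternal HF offspring (66.7%; 71.0% of all regions) and 9 lower. Semaphorins, which repel or attract axons through plexins, had 9 of 11 higher (81.8%), with a median of 1.67 points (1.41 points for all regions). This was the count with 4HFB and without it. The region with the smallest limma p of all 93, singled out after its values were seen, lay in intron 2 of Sema4c, a membrane-bound semaphorin that binds plexin-B2 (chromosome 9, 43138277 to 43138320). Its levels were 2.07%, 9.20%, 1.19%, 6.54% and 7.62% in paternal HF offspring and 1.39%, 0%, 0.944%, 0% and 1.61% in paternal chow offspring. Of the paternal HF animals, 24HFB lay within the paternal chow range and the others above it. The means were 5.32% ± 3.51 and 0.788% ± 0.758, a difference of 4.54 points (exact permutation p = 0.0238, limma with Benjamini-Hochberg adjusted p = 0.235). The neighbouring Sema4c region differed by 1.67 points in the same direction.

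The semaphorin region with the largest positive difference lay in exon 17 of 17 of Sema6c, a transmembrane semaphorin (chromosome 2, 196343374 to 196343416). Levels were 52.2%, 58.2%, 50.7%, 53.1% and 42.0% in paternal HF animals and 50.7%, 37.9%, 44.0%, 45.7% and 49.3% in paternal chow animals. Animals 24HFB and 28HFB lay within the paternal chow range, and 4HFB was the lowest of all. The difference of 5.73 points (limma adjusted p = 0.267) was 3.82 points without 4HFB. The larger of the 2 lower regions lay 18154 bases before Sema3e, a secreted ligand of plexin-D1 (chromosome 4, 17612679 to 17612825). It was almost fully methylated, with 86.3%, 95.2%, 88.6%, 91.7% and 91.9% against 93.1%, 99.1%, 91.9%, 94.6% and 88.7%, and the groups overlapped. The difference of −2.73 points (limma adjusted p = 0.285) was −1.33 points without 4HFB and −1.62 points without 22HFB. The remaining semaphorin regions, of Sema4b, Sema4g, Sema5a, Sema6b and Sema7a among them, differed by −1.02 to 2.23 points. The ends of this range, of Sema6b and of the Sema6c transcript end, were −1.55 and 1.10 points without 4HFB.

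Ephrins, membrane-anchored ligands of Eph receptors, had 5 regions, 3 higher and 2 lower. A region at the annotated transcript end near Efna2, which encodes an ephrin-A held by a lipid anchor, had 19.8%, 25.8%, 12.1%, 32.5% and 19.4% in paternal HF and 13.1%, 11.6%, 22.6%, 16.8% and 21.1% in paternal chow animals (chromosome 7, 12381805 to 12381894). The ranges overlapped widely, with 26HFB highest, and the difference was 4.90 points (limma adjusted p = 0.278). It was 2.26 points without 26HFB and 7.37 points without 24HFB. The ephrin region with the largest negative difference, also named for Efna2, had 2.69% ± 1.05 and 3.85% ± 1.92 at 12380894 to 12380954, with 2.32%, 2.39%, 1.73%, 4.49% and 2.54% against 2.38%, 1.52%, 4.25%, 4.78% and 6.32%. Its groups overlapped (−1.16 points, limma adjusted p = 0.346), and the difference was −0.539 points without 8HFB and −1.74 points without 4HFB. At the Efna2 promoter, 35 bases before the start and shown for its printed sequence, the level was close to 0 in both groups: 0.801%, 0%, 1.27%, 0.278% and 0.877% against 1.85%, 5.24%, 1.002%, 0.622% and 0.287% (chromosome 7, 12393274 to 12393327). The highest animal was 4HFB, and the difference of −1.16 points (limma adjusted p = 0.271) was −0.296 points without it. Efna4 had 14.8% ± 2.02 and 10.5% ± 3.72 at 3074 bases after its start. There 4HFB was the lowest animal at 4.31%, and the difference of 4.27 points was 2.72 points without it. In intron 1 of Efnb2, which encodes a transmembrane ephrin-B, the levels were 5.08% ± 3.83 and 2.41% ± 2.13.

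Netrins and netrin-G genes had 10 regions, 5 higher and 5 lower. Ntn1, the secreted cue that attracts or repels axons according to the receptor, had 5. The 3 that followed its start, in exon 1 and in the promoter window, were lower, and the pair before the start was higher. The first, in exon 1 (chromosome 10, 54967017 to 54967047), had 0.303%, 3.65%, 3.99%, 2.08% and 0.291% against 6.16%, 11.8%, 2.60%, 4.75% and 2.57%. Here the highest paternal HF animals lay within the paternal chow range, and 4HFB was highest of all. The difference of −3.51 points (exact permutation p = 0.0794, limma adjusted p = 0.235) was −1.96 points without it. At 54967068, also in exon 1, the difference was −1.24 points, and at 54967460, in the promoter window, −1.27 points, and without 4HFB these were −0.268 and −0.307 points. The first of these was also −0.624 points without 2HFB and −2.03 points without 8HFB. Upstream, at 54967949, the level was 3.17% ± 0.831 and 1.56% ± 0.978, a difference of 1.605 points. A region 13747 bases before the start, at 54981264, had 4.39% ± 3.03 and 1.66% ± 0.783, a difference of 2.72 points that was 1.51 points without 26HFB.

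Ntng2 encodes netrin-G2, a lipid-anchored relative of the netrins on axons that binds NGL-2 on the receiving cell. Its 4 regions lay 3061 to 4315 bases before its start on chromosome 3, the outer pair lower and the inner pair higher in paternal HF offspring. The one nearest the start, at 7799377 to 7799515, had 0.379%, 2.51%, 0.133%, 1.06% and 0.208% against 9.30%, 1.39%, 1.02%, 9.64% and 4.41%. Animal 22HFR lay above the paternal chow animals 4HFB and 6HFBB, and the other paternal HF animals lay near or below them. The difference was −4.29 points (exact permutation p = 0.0635, limma adjusted p = 0.235). Next to it, the levels were 5.23% ± 1.14 and 3.39% ± 1.14 at 7799873, and 3.97% ± 1.89 and 1.94% ± 1.22 at 7800304. The farthest, at 7800669, had 2.63% ± 0.721 and 4.21% ± 2.53, a difference of −1.58 points that was −0.513 points without 4HFB. Ntn5 had the largest difference of the netrins, in intron 2 of 5, at 80.3% ± 5.44 and 73.1% ± 8.67 (chromosome 1, 101674243 to 101674314). Its levels of 74.4%, 79.3%, 88.6%, 82.2% and 77.1% overlapped those of the paternal chow animals at 86.0%, 76.2%, 70.8%, 69.6% and 62.8%, of which 2HFB stood highest (7.25 points, limma adjusted p = 0.235; 4.67 points without 8HFB). The only Slit region lay at the promoter of Slit1, a secreted repellent, with 2.52% ± 2.04 and 1.64% ± 0.687, and a difference of 0.872 points that was 0.0301 points without 22HFR.

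**Figure D3:**
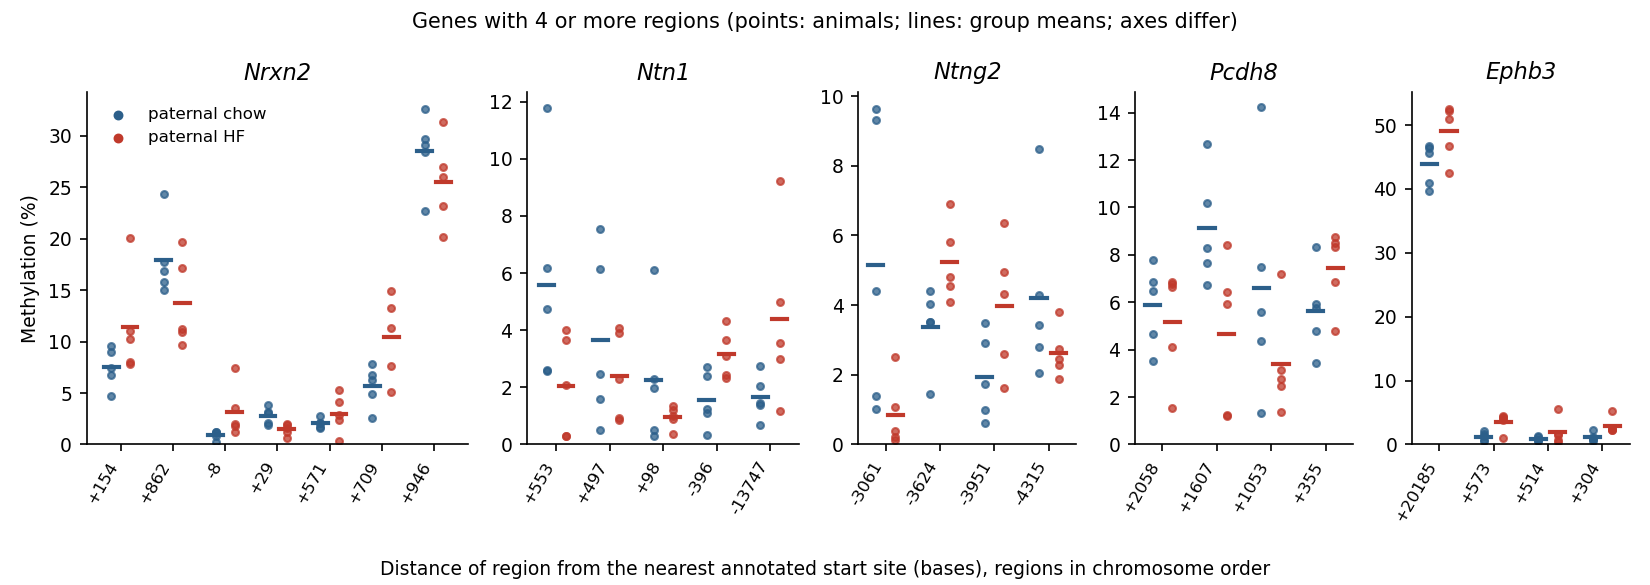
Points are single animals and short lines group means (n = 5 each), with methylation in percent on the y axis (scales differ) and the regions of the 5 genes with at least 4 regions on the x axis, labelled by distance in bases from the nearest start site. At Nrxn2, Ntn1, Ntng2 and Pcdh8 the paternal HF mean lies above at some regions and below at others, and at the 4 regions of Ephb3 above.

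Guidance receptors had 32 regions, 19 higher (59.4%; 71.0% of all regions) and 13 lower in paternal HF offspring. Plexins, the semaphorin receptors, were split, 5 higher and 5 lower. The largest difference among all 93 regions, 7.88 points, lay 113509 bases before Plxna4, a receptor that works with neuropilins for class 3 semaphorins (chromosome 4, 59922736 to 59922923). Levels there were 65.0%, 49.9%, 59.2%, 53.5% and 45.6% against 53.7%, 31.3%, 51.6%, 52.4% and 44.9%. The lowest animal was 4HFB, the groups overlapped (limma adjusted p = 0.252), and the difference was 4.001 points without it. Plxna2, which binds class 6 semaphorins, had 3 regions near its start. Exon 1 held 1 lower region (−2.01 points, −1.18 points without 4HFB) and 1 higher (2.29 points) 23 bases apart, and the first intron held the largest negative difference of the plexins, at 3.89% ± 0.702 and 6.13% ± 2.59. That region, on chromosome 13 at 113374504 to 113374575, had 2.81%, 4.61%, 3.79%, 4.41% and 3.85% against 7.47%, 2.29%, 5.60%, 9.29% and 6.001%. All paternal HF animals lay below every paternal chow animal except 4HFB, which was the lowest of the 10 (−2.24 points, limma adjusted p = 0.237; −1.45 points without 6HFB). Without 4HFB the difference was −3.20 points and the groups did not overlap, as at 2 of the 93 regions in that setting.

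Plxnc1, the receptor of Sema7a, had 3 regions in exon 1 on chromosome 7. At 36000365 the levels were 6%, 11.5%, 1.94%, 3.15% and 4.61% against 1.69%, 3.44%, 2.00%, 0.427% and 1.16%. Of the paternal HF animals 24HFB and 26HFB lay within the paternal chow range (3.69 points, exact permutation p = 0.0476). At 36000603 the direction was the other one, with 0.714%, 1.93%, 0.438%, 0% and 0.733% against 1.68%, 3.63%, 2.00%, 1.88% and 2.77%, and 22HFR was the paternal HF animal within the paternal chow range (−1.63 points, exact permutation p = 0.0238). The limma adjusted p was 0.235 at both, and these regions were singled out after their values were seen. The third, at 36000748, differed by −1.87 points, and by −1.10 points without 4HFB, its highest animal at 6.17%. Plxnd1, the receptor of Sema3e, had adjacent regions in exon 1 at −1.14 and 1.40 points. The region of the ligand Sema7a differed by 1.16 points and that of Sema3e by −2.73 points.

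Eph receptors, kinases that bind ephrins, had the most regions, 18 at 9 genes, 11 higher and 7 lower. Ephb3, which binds ephrin-B, had all 4 of its regions higher on chromosome 11. The one with the largest difference of the Eph receptors lay between genes, 20185 bases beyond its start, at 83526434 to 83526543. Its levels were 42.5%, 52.6%, 52.2%, 51.0% and 46.8% against 45.7%, 41.0%, 39.7%, 46.8% and 46.4%. Animals 22HFR, 24HFB and 26HFB stood above all paternal chow animals, 28HFB lay level with 6HFB, the highest of them, and 22HFB lay among them (5.12 points, limma adjusted p = 0.265). In intron 1, at 83546073 to 83546128, the levels were 4.19%, 4.45%, 3.86%, 1.03% and 4.27% against 0.645%, 1.29%, 1.64%, 0.527% and 2.12%. All paternal HF animals but 26HFB lay above every paternal chow animal (2.32 points, exact permutation p = 0.0317, limma adjusted p = 0.235). The next region, at 83546143, had 1.96% ± 2.06 and 0.881% ± 0.383, a difference of 1.08 points that was 0.187 points without 22HFR. In exon 1, at 83546336, the levels were 2.90% ± 1.31 and 1.16% ± 0.652, with 26HFB highest at 5.24%, and the difference of 1.74 points was 1.15 points without it.

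Ephb2, another ephrin-B receptor, had its 3 regions lower in paternal HF offspring, as the only gene besides Pcdhgc3 with all of several regions lower. At the promoter, 456 bases before the start (chromosome 5, 155204851 to 155204973), paternal HF animals had 2.45%, 0.833%, 1.39%, 0.556% and 1.51%, and paternal chow animals 1.06%, 20%, 0.8%, 4.67% and 1.25%. Animal 4HFB lay far above all others, whose groups overlapped. The difference of −4.21 points (limma adjusted p = 0.264) was −0.598 points without it. The other promoter region differed by −1.40 points and the region in intron 1 by −1.13 points. Without 4HFB, the highest animal at both, these were −0.842 and 0.468 points. At Ephb1, an intron 1 region 55915 bases after the start had 42.0% ± 12.0 and 41.9% ± 16.7. The highest of its 10 animals was 4HFB at 68.9%, and the difference of 0.104 points was 6.85 points without it. The ephrin-A receptors had 9 regions at 6 genes. Exon 7 of Epha8 was nearly fully methylated, with 88.9%, 94.6%, 88.4%, 92.0% and 89.1% against 88.1%, 81.1%, 88.7%, 84.7% and 88.0% (chromosome 5, 155300398 to 155300479). Of the paternal chow animals 6HFBB reached into the paternal HF range (4.50 points, exact permutation p = 0.0159, limma adjusted p = 0.235; singled out after its values were seen). Epha1 and Epha4 each had regions in both directions within 1000 bases.

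Unc5a and Unc5b, which encode netrin receptors that mediate repulsion, had 1 region each, both higher. The Unc5b region lay 116 bases before the start (chromosome 20, 30406392 to 30406430) and had 5.83%, 1.52%, 1.43%, 1.88% and 2.84% against 2.06%, 0%, 1.07%, 2.48% and 1.72%. Its groups overlapped, with 22HFB highest (1.24 points, limma adjusted p = 0.296; 0.454 points without 22HFB). Both Robo regions were named for Robo3, a Robo-family receptor of commissural axons, but lay 20210 and 24362 bases before its start. The nearer had 7.48% ± 3.09 and 5.67% ± 2.05, and the farther 0.517% ± 0.679 and 1.59% ± 0.941. Their differences of 1.82 and −1.08 points were 0.508 points without 26HFB and −0.691 points without 8HFB.

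**Figure D4:**
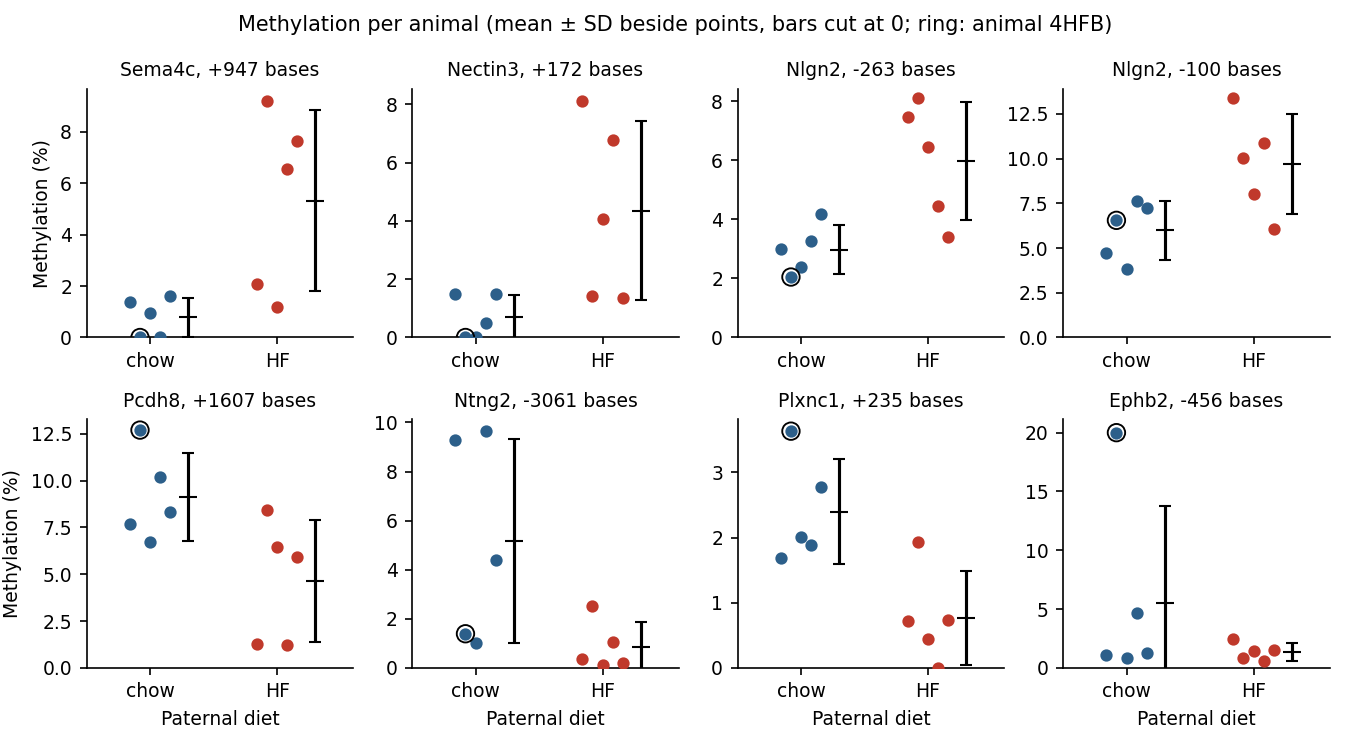
Points are single animals and bars are the group mean ± SD (n = 5 each, bars cut at 0), in percent methylation on the y axis, for 8 regions chosen after their values were seen; the ring marks animal 4HFB. Single animals of one group lie within the range of the other in each panel, and 4HFB is the outlying paternal chow animal at Ephb2.

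Synaptic adhesion genes had 11 regions, 8 higher (72.7%; 71.0% of all regions) and 3 lower in paternal HF offspring. Of the neurexins, presynaptic partners of neuroligins, Nrxn2 alone had regions, 7 of them, 4 higher and 3 lower, all on chromosome 1. They lay near the starts of a transcript of 22 exons and a transcript of 7 exons and at a transcript end. In exon 1 of 22, the region at 221801652 had 10.2%, 20.05%, 8.03%, 11.04% and 7.78% against 4.73%, 6.79%, 8.96%, 9.57% and 7.41%. The highest animal was 22HFR, and the groups overlapped (3.93 points, limma adjusted p = 0.235; 1.78 points without 22HFR). At 221802362 in the same exon, the levels of 17.1%, 9.70%, 11.3%, 10.9% and 19.7% stood against 16.8%, 24.4%, 14.98%, 15.8% and 17.7%. Here 4HFB was highest, and 22HFB and 28HFB lay among the paternal chow animals (−4.19 points, limma adjusted p = 0.246; −2.59 points without 4HFB).

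At the other Nrxn2 start, the region at 221872189 had 3.20% ± 2.50 and 0.940% ± 0.409, and the next, 2 bases farther on at 221872237, had 1.46% ± 0.572 and 2.81% ± 0.792. These nearly adjoining regions differed by 2.26 points (1.21 without 24HFB) and −1.35 points. In exon 1 of 7, at 221872707, the difference was 0.934 points, with 0.362 points without 22HFB and 1.603 points without 24HFB. The region with the largest positive difference of the gene followed in the intron, at 221872882 to 221872975, with 5.12%, 11.3%, 7.68%, 13.3% and 14.96% against 6.25%, 2.61%, 4.91%, 7.86% and 6.71%. Animals 22HFR, 26HFB and 28HFB stood above every paternal chow animal (4.80 points, exact permutation p = 0.0635, limma adjusted p = 0.235). At the transcript end, at 221906310, the levels were 25.5% ± 4.20 and 28.5% ± 3.63, and the difference of −2.98 points was −1.63 points without 22HFB and −1.95 points without 2HFB.

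All 3 regions of Nlgn2, the neuroligin of inhibitory synapses, were higher, in a row 100 to 263 bases before the start on chromosome 10. The nearest, at 56441574 to 56441630, had 13.4%, 10.1%, 8.02%, 10.9% and 6.05% against 4.71%, 6.55%, 3.83%, 7.63% and 7.24%. Only 28HFB lay within the paternal chow range (3.70 points, exact permutation p = 0.0476, limma adjusted p = 0.235). The farthest, at 56441723, had 7.45%, 8.11%, 6.45%, 4.44% and 3.40% against 2.999%, 2.05%, 2.38%, 3.27% and 4.19%, and again 28HFB was the only paternal HF animal within the paternal chow range (2.99 points, exact permutation p = 0.0159, limma adjusted p = 0.235). The middle region, at 56441665, had 8.35% ± 1.42 and 6.61% ± 2.48, with 4HFB highest at 10.4%, and the difference of 1.74 points was 2.70 points without it. Lrfn1, which encodes a postsynaptic adhesion protein that binds PSD-95, had 11.5% ± 2.51 and 9.76% ± 2.34 in its last exon, and the difference of 1.76 points was 0.763 points without 4HFB and 0.771 points without 22HFR.

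The cadherin superfamily had 17 regions, 7 higher (41.2%; 71.0% of all regions) and 10 lower in paternal HF offspring. Without 4HFB these counts were 9 and 8. Cadherins, calcium-dependent adhesion proteins, had 4 of 6 regions higher, and protocadherins 3 of 11, with a median of −1.40 points. For the protocadherins this became 5 higher and 6 lower without 4HFB. The largest positive difference of the cadherins lay 2769 bases before Cdh3, which encodes P-cadherin, with 13.5%, 9.23%, 8.37%, 13.5% and 5.07% against 8.51%, 9.72%, 4.41%, 3.63% and 6.79% (chromosome 19, 38666440 to 38666482). The groups overlapped, with 22HFB and 26HFB highest (3.33 points, limma adjusted p = 0.236). The largest negative one lay in exon 2 of Cdh2, which encodes N-cadherin of neuronal junctions, at 1.36% ± 0.653 and 2.63% ± 1.27. Its levels of 2.09%, 1.97%, 0.681%, 0.782% and 1.29% overlapped those of 3.74%, 4.17%, 1.97%, 2.06% and 1.19% (chromosome 18, 8360310 to 8360351; −1.26 points, limma adjusted p = 0.252). The promoter of Cdh22, whose sequence is printed above, had 36.6% ± 5.63 and 37.5% ± 5.53 (−0.885 points, −2.23 without 4HFB), while that of Efna2, with the same number of CpGs in its RefSeq window, had 0.645% ± 0.504 and 1.80% ± 2.01.

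Pcdh8, a protocadherin whose synthesis is driven by neuronal activity in rat hippocampus, had 4 regions, all in exon 1 on chromosome 15. From the start inwards their differences were 1.80, −3.21, −4.47 and −0.688 points. The third, at 62199204 to 62199256, had the largest negative difference of the 93 regions. Its levels were 1.26%, 8.42%, 6.43%, 1.21% and 5.92% against 7.67%, 12.7%, 6.74%, 10.2% and 8.30%, and 22HFR was the paternal HF animal within the paternal chow range (exact permutation p = 0.0397, limma adjusted p = 0.235). The second, at 62199757, had 3.39% ± 2.22 and 6.59% ± 4.82, with 4HFB highest at 14.2%, and its difference was −1.30 points without that animal. At 62200444 the levels were 7.44% ± 1.66 and 5.64% ± 1.80. At 62198674 they were 5.18% ± 2.33 and 5.87% ± 1.72, where leaving out 28HFB, the lowest animal, turned the difference of −0.688 points to 0.221 points. With any other single animal left out it lay between −1.27 points, reached without 4HFB, and −0.204 points.

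Of the clustered protocadherins, whose many similar exons give each neuron its own surface identity, Pcdhgb7 had the largest positive difference of the family. Its exon 1 region on chromosome 18, 30902036 to 30902112, had 20.7%, 17.3%, 26.2%, 25.7% and 20.2% against 15.4%, 18.6%, 22.6%, 18.4% and 13.6% (4.30 points, limma adjusted p = 0.246). The groups overlapped, with 24HFB and 26HFB highest. Both regions of Pcdhgc3 were lower, by 1.68 and 2.06 points. The exons of this cluster resemble each other, and how reads matching several of them were treated is not given in the sources used here, so these values are uncertain. Of the other protocadherin genes, Pcdh1 had 2.52% ± 1.72 and 0.572% ± 0.357 at 8360 bases before its start, and Pcdh7, Pcdh9 and Pcdh10 had lower means in paternal HF offspring. Those of Pcdh9 and Pcdh10, at −1.40 and −1.09 points, were 0.0918 and 0.367 points without 4HFB.

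Nectins, immunoglobulin-like adhesion proteins of cell junctions and synapses, had 4 of 5 regions higher (71.0% of all regions were higher). The largest difference lay 172 bases from the start of Nectin3, which pairs with nectin-1 across synapses in mouse hippocampus, in a window the file annotates as the end of a lincRNA transcript (chromosome 11, 57993327 to 57993425). Its levels were 8.12%, 1.43%, 4.06%, 6.79% and 1.35% against 1.49%, 0%, 0%, 0.490% and 1.48%. Animals 22HFR and 28HFB lay within the paternal chow range and the others above it (3.66 points, exact permutation p = 0.0476, limma adjusted p = 0.235). Nectin2 had adjoining regions at 3.67% ± 1.30 and 1.503% ± 1.38 in the promoter and at 2.44% ± 1.24 and 1.02% ± 0.494 in exon 1. In intron 1 of Nectin1, abutting regions had 18.9% ± 2.02 and 17.4% ± 0.501 at 48095579 and 11.02% ± 4.21 and 12.5% ± 5.59 at 48095653 on chromosome 8. The second had 9.09%, 18.2%, 7.17%, 10.02% and 10.6% against 9.92%, 19.8%, 7.48%, 17.1% and 8.26%, with overlapping groups (−1.51 points, limma adjusted p = 0.595; 0.315 points without 4HFB, and −3.30 to −0.351 with any other animal left out). Cntnap1 encodes the contactin-associated protein of the junction between axon and myelin. Its region had 0.949% ± 0.385 and 1.97% ± 0.840, in a window the file annotates as promoter of another transcript than the nearest (chromosome 10, 89089750 to 89089958). Its levels were 1.04%, 0.385%, 1.46%, 0.9002% and 0.951% against 2.30%, 1.19%, 1.36%, 1.72% and 3.26%, and 24HFB was the paternal HF animal above the lowest paternal chow animals (−1.02 points, limma adjusted p = 0.241).

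Regions of the same gene often lay in opposite directions. Of the 23 genes with 2 or more regions, 8 had all regions higher, 2 all lower and 13 (56.5%) regions in both directions, against 52.2% of such genes in the whole table. Of 32 neighbouring pairs of regions at most 1000 bases apart, 17 (53.1%) shared their direction and 15 (46.9%) did not, against 57.7% sharing it among 2500 pairs in all. Nrxn2, Nectin1, Plxna2, Ntng2, Plxnc1 and Pcdh8 gave examples of opposite pairs above, and Nlgn2, Sema4c and Nectin2 of pairs with the same direction. Without 4HFB the pairs again numbered 17 and 15.

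**Figure D5:**
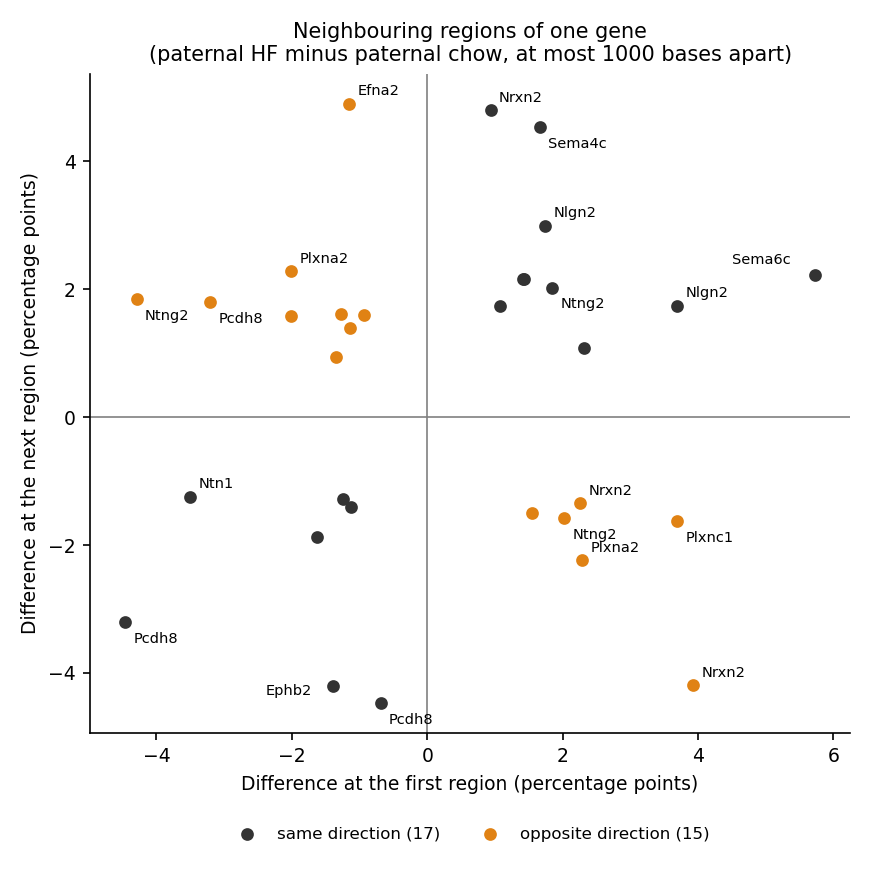
Each point is 1 of the 32 pairs of neighbouring regions of a gene at most 1000 bases apart, with the difference at the first region on the x axis and at the next region on the y axis (paternal HF minus paternal chow, percentage points). The 17 pairs of one direction lie at the upper right and lower left, and the 15 opposite pairs the others.

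By annotation, the higher regions were 12 of 23 at promoters (52.2%; 70.6% of all promoter regions), 12 of 26 in exons (46.2%; 70.8% of all), 15 of 19 in introns (78.9%; 71.9% of all), 14 of 21 between genes (66.7%; 71.0% of all) and 3 of 4 at transcript ends. By level, 57.4% were higher at up to 5% methylation (70.1% of all such regions), 61.9% between 5% and 20% (73.9% of all) and 77.8%, or 7 of 9, between 20% and 80% (80.1% of all). These counts were not tested, since regions of one gene share their animals and often their position.

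Partners of these families outside the choice by symbol were read from 5 lists of 121 genes. Of these genes, 42 had 70 regions, 40 higher and 30 lower in paternal HF offspring (57.1% higher, with 71.0% of all regions). An unadjusted limma p below 0.05 was found for 9 higher (12.9%, with 16.4% of all) and 3 lower (4.29%, with 4.52% of all), and 0 passed after adjustment. Guidance co-receptors and further ligands had 12 of 18 higher, signal transducers of guidance receptors 13 of 24, cadherin and nectin partners 5 of 12, further synaptic adhesion genes 7 of 12 and further immunoglobulin adhesion genes 3 of 4. The groups did not overlap at 1 higher region, of Adgrl1, and 1 lower, of Arhgef11 (1.43% each, with 3.93% and 1.22% of all). The Arhgef11 region, at the promoter of a gene that acts downstream of plexin-B, was also the 1 of the 70 with a q below 0.05 in the authors' deposited table (1.43%, with 0.848% of all). Its paternal chow animals were at 2.26% to 2.53% except 4HFB at 13.2%, giving −3.84 points with 4HFB and −1.69 points without it. Adgrl1 encodes latrophilin-1, an adhesion receptor of presynaptic terminals. Its promoter region 739 bases before the start had 3.30%, 4.76%, 4.07%, 4.31% and 2.64% against 1.09%, 0%, 0.316%, 1.56% and 2.59% (chromosome 19, 25028254 to 25028341). Every paternal HF animal lay above every paternal chow animal, 28HFB only just (2.70 points, exact permutation p = 0.00794, limma adjusted p = 0.235). Chl1, an adhesion molecule that works with neuropilin-1, had a region 125933 bases before its start with 6.21% ± 3.01 and 1.90% ± 1.99, and overlapping groups (exact permutation p = 0.0317). In the lower direction, Ctnnd2, which encodes delta-catenin, a neuronal partner of cadherins, had 0.381% ± 0.265 and 2.84% ± 2.17 at 165709 bases before its start, −2.46 points and −1.61 without 4HFB (exact permutation p = 0.0159). Fat3, a giant cadherin, had 0.689% ± 0.700 and 3.47% ± 2.70 at 131627 bases before its start (exact permutation p = 0.0556), and an adjacent region lay the other way at 4.39% ± 3.14 and 0.901% ± 0.972. The limma adjusted p of these regions was 0.235 as well. Adgrl1, Chl1, Ctnnd2 and Fat3 were named for the smallest limma p in each direction among the 70 regions. Their p-values are therefore selected minima, and the exact permutation p of 0.00794 is the smallest that 5 against 5 animals can give.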

How the data were processed

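Per the labels' protocols, genomic DNA was turned into reduced representation bisulfite libraries with a Zymo-Seq kit. Trim Galore, Bismark and Bowtie are named, without versions, in the submitters' processing notes. The regions were called with metilene, per the file name and headers, and its settings, the coverage filter and the genome build were not given in the sources used here. The deposited values were each animal's methylation fraction averaged per region, group mean fractions, and q-values and p-values as the authors wrote them. As tested on the table, every region held at least 10 CpGs and the authors' group means differed by at least 1 percentage point. Positions are as the file gives them, and whether starts count from 0 or 1 is unknown. In 135 regions (1.51%, 0 of the 93) the file's CpG number exceeded the length divided by 2, so there it cannot count CpG dinucleotides on 1 strand. Levels were used here without read counts, so depth per animal and region is unknown and no counting interval is given. Column names give the group and no sample title, and each group's 5 columns served as unnumbered replicates, with 0 other columns of levels present.

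Fractions were multiplied to percent, and all 8957 regions were fitted with limma 3.58.1 in R 4.3.3, with moderated variances that follow the mean, with Benjamini-Hochberg adjustment at 0.05. The step was tested on simulated data. Python 3.11.15 with pandas 2.3.3, numpy 2.4.6, SciPy 1.17.1 and matplotlib 3.10.9 did the rest. The members, families and lists of partners were chosen with earlier results of these data known. Of the 93, regions were named in full where the deposited q was below 0.05 (0 regions) or groups did not overlap (0 regions). So were those with the largest difference of a family in either direction, and all regions of genes with 4 or more. Outside the 93, regions of the 2 partner genes with the smallest p in each direction were also named in full. Other regions named were chosen after their values were seen. Promoter sequences are RefSeq's on GRCr8, found for 36 of 51 genes. The alternatives were levels on a logit scale (offset 0.01), other variance settings, an exact permutation test, autosomes, at least 15 CpGs, within 10000 bases of a start, the authors' means, and each animal left out.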

Additional observations from a re-analysis of the deposited data

Results flagged for a closer look

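Of 100 groups of 5 animals tested, both groups at 48 named regions and for the mean and median over the 93 regions, 6 held an animal whose gap to its nearest neighbour exceeded Dixon's critical value of 0.71 times the group's range, where chance gives about 1 in 20. Many of these regions were picked for large differences, and all share the same animals, so 6 of 100 cannot be read against that rate. At Ephb2 (chromosome 5, 155204851), 4HFB was at 20% and the other paternal chow animals were at 0.8% to 4.67%. At Ephb3 (chromosome 11, 83546073), 26HFB was at 1.03% and the other paternal HF animals at 3.86% to 4.45%; the difference of 2.32 points was 2.95 points without it. At Ephb3 (83546143), 22HFR was at 5.53% and the others of its group at 0.394% to 1.68%. At Ephb3 (83546336), 26HFB was at 5.24% and the others at 2.22% to 2.42%, and the difference of 1.74 points was 1.15 points without it. At Nrxn2 (chromosome 1, 221801652), 22HFR was at 20.05% and the others at 7.78% to 11.04%. At Nrxn2 (221802362), 4HFB was at 24.4% and the other paternal chow animals at 14.98% to 17.7%. The differences at the Ephb2, the second Ephb3 and both Nrxn2 regions without these animals stand with those genes. The depth behind these levels is unknown and its part in them was not tested.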

How the results depend on the processing

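No member passed the adjusted threshold under any alternative run. The smallest adjusted p of a region named in full was 0.154 under any of them. It came from the exact permutation test at the partner gene Adgrl1, which is not among the 93. With at least 15 CpGs, which left 11 of the 93 regions, 4 had an unadjusted p below 0.05 and 7 were higher in paternal HF offspring. Leaving out 1 animal at a time gave 10 to 16 regions with an unadjusted p below 0.05, 0 to 5 whose groups did not overlap, 55 to 60 higher, 0 to 0 with an adjusted p below 0.05, 10 to 11 genes with all of several regions in one direction, and a difference in mean level of 0.412 to 0.928 points. Shares over all regions under these settings are given only without 4HFB, where 7.79% of all regions did not overlap. The other counts of this paragraph therefore cannot be set against the whole table. Other variance settings and the exact permutation test leave the difference unchanged, so they could not reverse a direction. Many named regions were also picked for large differences. Of 48 regions named in full, partner regions among them, 46 kept their direction under every alternative. The exceptions were Nectin1 at 48095653, at −3.30 to 0.315 points, reversed without 4HFB, and Pcdh8 at 62198674, at −1.27 to 0.221 points, reversed without 28HFB; the cause was not tested. The alternatives without 4HFB beyond the leave-one-out values, and the averaging of columns that share a leading number (22HFB with 22HFR, 6HFBB with 6HFB; 13 regions with an unadjusted p below 0.05), were chosen after seeing the data. No paired analysis was possible because the table's columns carry no replicate numbers. Unknown depth limits what a level near 0 can show.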

Other observations

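The 5 regions of these families on the X chromosome are not among the 93 and were all named for Pcdh19 or Nlgn3. All had a higher mean in paternal HF offspring, as did 71.0% of all regions. The share of the X chromosome is not given, and regions of one gene are not separate observations. Sex is not stated, and the part of an unequal number of males and females was not tested. Pcdh19, a protocadherin gene that is mutated in a form of human epilepsy, had 3 regions around its start on the X chromosome. At 104493246 the levels were 30.5% ± 3.06 in paternal HF and 22.2% ± 5.27 in paternal chow offspring (SD, n = 5 each), with paternal chow animal 6HFB at 29.9% within the paternal HF range. At 104493664 they were 29.6% ± 6.52 and 20.6% ± 3.98, with 22HFB at 20.1% among the paternal chow animals. At 104493813 they were 23.3% ± 2.25 and 19.4% ± 4.79. The 2 Nlgn3 regions differed by 8.09 and 3.24 points. At the second, at 71199516, 4HFB was the highest animal at 39.6%. The other paternal chow animals were at 15.5% to 22.6%, so 3.24 points depends on 4HFB. The difference without it is not given here. The limma adjusted p was 0.235 at 3 of the 5 regions, 0.268 at Pcdh19 104493813 and 0.487 at the other Nlgn3 region.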
